A study of Mus musculus with 6 samples.

Results

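Coenzyme Q (ubiquinone) is made inside mitochondria by a set of nuclear-encoded proteins, and 10 of their genes are described here in embryonic mouse hearts: Pdss1, Pdss2, Coq2, Coq3, Coq4, Coq5, Coq6, Coq7, Coq9 and Adck3, the older name of Coq8a. They were picked by gene symbol as known members of the pathway. All 10 were found among the 23284 listed genes and all 10 passed the filter on low values. Poly(A) RNA of whole hearts at stage E13.5 was sequenced in 3 Tfam KO libraries (Tfam fl/fl; Nkx2.5 IRES-Cre/+) and 3 Control libraries (Tfam fl/+; Nkx2.5 IRES-Cre/+), strain C57BL/6, and each library was a separate pool of 5 hearts. All embryos thus carried the Cre allele and at least 1 floxed Tfam allele, and the controls kept 1 allele that was not floxed. Cre expressed from the Nkx2.5 locus acts mainly in the cardiac lineage, so whole hearts also hold cells in which Tfam is not deleted. In such bulk samples, fewer cells of a type and less RNA per cell cannot be told apart. The comparison asks how these genes stand when the cardiac lineage loses Tfam, a DNA-binding protein on which packaging, transcription and replication of mitochondrial DNA depend.

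Coenzyme Q is a lipid of the mitochondrial inner membrane with a redox-active ring and a long isoprenoid tail. It takes electrons from complex I, complex II and several other dehydrogenases and passes them to complex III, so contracting heart muscle depends on it. Pdss1 and Pdss2 together build the tail, Coq2 joins the tail to the ring, and Coq3, Coq5, Coq6 and Coq7 modify the ring. The later steps run in a protein complex at the inner membrane, where Coq4 and the lipid-binding Coq9 also take part and which the atypical kinase-like protein encoded by Adck3 supports. Low ubiquinone has been reported in mouse hearts in which mitochondrial gene expression was disrupted. No lipid or protein was measured here.

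The promoter sequences of 4 members are shown because these genes had the highest and the lowest differences between the genotypes (Coq3, and Coq7 and Adck3) or, for Coq6, the same motif as the low pair. Each is the stretch of 130 bases before the transcription start, read 5′ to 3′ on the gene's strand from RefSeq's table for GRCm38.p6, and capitals mark CCAAT, the NF-Y motif, or its reverse complement.
Coq3 (chr4:21879516-21879645, plus strand): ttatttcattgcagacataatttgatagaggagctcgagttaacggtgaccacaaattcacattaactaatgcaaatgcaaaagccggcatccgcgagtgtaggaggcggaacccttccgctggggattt
Coq6 (chr12:84361838-84361967, plus strand): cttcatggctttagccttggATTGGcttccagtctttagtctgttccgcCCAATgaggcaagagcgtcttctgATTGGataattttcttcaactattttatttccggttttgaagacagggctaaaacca
Coq7 (chr7:118533357-118533486, minus strand): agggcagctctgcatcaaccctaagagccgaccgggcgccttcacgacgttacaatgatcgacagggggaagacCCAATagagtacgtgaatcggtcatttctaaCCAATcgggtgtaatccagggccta
Adck3 (chr1:180196021-180196150, minus strand): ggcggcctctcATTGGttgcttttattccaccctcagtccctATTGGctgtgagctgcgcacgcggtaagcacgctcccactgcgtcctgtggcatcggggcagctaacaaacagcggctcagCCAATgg
Coq7 carried the motif 2 times and Coq6 and Adck3 each 3 times, whereas neither of the 2 listed starts of Coq3 carried any. The sequences of Coq3 and Adck3 belong to the first of their 2 listed starts, and the second of Adck3 held no CCAAT. The table held promoters of 9 members (Coq5 had no entry), each window running from 250 bases before to 50 bases after the start. Members are counted here as genes with a match at any listed start. The percentages for all genes count single promoters, 32851 of them for 27025 gene symbols, so the units differ. CCAAT, searched on both strands, was in 3 of these 9 genes, against 37.4% of the 32851 promoters of all genes. CCGGAAG, an ETS motif, was in Pdss1, Pdss2 and Coq6, against 8.86% of all promoters. GCATGCG, the core of the NRF1 motif, was in Coq2, against 3.58%. TGATGNAA, the core of the ATF4/CHOP composite element, and TGACGTC, the CRE motif, were in 0 of the 9, against 3.97% and 3.21%. The 3 genes with CCAAT did not share a direction below: Coq6 had a positive log2 fold change and Coq7 and Adck3 had negative ones.

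The recovered library totals were between 12370092 and 18078620 reads, and the 10 genes had from 47 reads (Coq4 in Control replicate 2) to 1003 reads (Coq5 in Tfam KO replicate 3). The libraries did not share a scale. Rn45s, the ribosomal RNA precursor, took 14.95% to 31.2% of the reads in the KO pools and 27.8% to 32.5% in the control pools. Over the 10807 tested genes the median log2 fold change was 0.28 on the deposited scale. It was 0.01 once each library was divided by its median-of-ratios size factor (0.828 to 1.33). Such a small median follows largely from how size factors are set, and it does not show which scale is right. Each difference is therefore given on both scales, and rose or fell is written only of a gene whose limma test passed an adjusted p of 0.05 on both. In the main fit on the deposited scale, SEs, intervals and p-values come from the variance of all tested genes at a similar level. They do not reflect the spread of the single gene over its replicates. Levels are in FPKM, reads per transcript length and library total. Tfam itself was at 3.97, 4.77 and 6.22 FPKM in the KO pools and 4.64, 5.55 and 6.62 in the control pools. For Tfam the log2 fold change was -0.15 as deposited (adjusted p = 0.651) and -0.42 after size-factor scaling (adjusted p = 0.152). The groups overlapped as deposited and did not overlap with size factors. The counts of cell type markers below stand beside these shares of all tested genes. As deposited, 6.21% passed upward and 1.16% downward, and 23.3% and 2.53% at an unadjusted p of 0.05. With size factors these shares were 2.07% and 2.5%, and 8.87% and 10.4%. Limma-voom called 2.55% higher and 4.27% lower. Cardiomyocyte markers were abundant in every library. As deposited, 6 genes summed to 3782 to 5143 FPKM in the KO pools and 4596 to 5226 FPKM in the control pools. With size factors the sums were 3227 to 5573 FPKM and 4689 to 6015 FPKM. The median log2 fold change of the 6 was 0.14 as deposited and -0.17 with size factors, where 4 were negative. On either scale 0 of the 6 passed the limma test. At an unadjusted p of 0.05, the counts were 1 upward on the deposited scale and 1 downward on the size-factor scale. Limma-voom called 1 of the 6 lower, and 3 were lower in it at an unadjusted p of 0.05, against 12% of all genes. Of 4 fibroblast and mesenchyme markers, 2 passed upward as deposited and 0 with size factors, where 2 were higher at an unadjusted p of 0.05, and limma-voom called 0. The summed level of those 4 was 174 to 259 FPKM in the KO pools and 119 to 183 FPKM in the control pools as deposited. With size factors it was 178 to 195 FPKM and 137 to 205 FPKM. As deposited, 1 of 5 endothelial markers (Emcn, log2 fold change 0.68, adjusted p = 0.0475) and 1 of 3 tested macrophage markers (Cx3cr1, 0.76, adjusted p = 0.0102) also passed upward. With size factors neither did (adjusted p = 0.131 and 0.186). The 4 tested erythroid markers had a median of -0.14 as deposited and -0.45 with size factors, where 4 of 4 were negative. Of the erythroid and the 4 epicardial markers, 0 passed on either scale, also at an unadjusted p of 0.05, and limma-voom called 0. At an unadjusted p of 0.05, limma-voom gave 2 of the 4 tested erythroid markers lower, against 12% of all genes, and 0 epicardial markers. Hba-a1, an erythroid marker, was listed at 0 in all libraries. The part of cell makeup in the differences below was not tested.

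Between Tfam KO and control hearts, the log2 fold changes of the 10 coenzyme Q genes ran from -0.22 (Adck3) to 0.62 (Coq3) as deposited and from -0.39 (Coq7) to 0.37 (Coq3) with size factors. As deposited, 0 of the 10 passed the test upward, against 6.21% of all tested genes, and 0 downward, against 1.16%. With size factors the counts were again 0 and 0, against 2.07% and 2.5% of all genes, and limma-voom on the recovered reads also gave 0 and 0, against 2.55% and 4.27%. On both scales together 0 members passed in either direction, against 2.07% of all genes upward and 0.953% downward. At an unadjusted p of 0.05, 4 members were higher and 0 lower as deposited (23.3% and 2.53% of all genes). These 4 were Pdss1, Coq3, Coq5 and Coq6. With size factors 1 was higher (Coq3) and 2 lower (Coq7 and Adck3), against 8.87% and 10.4% of all genes, and limma-voom gave the same counts, against 8.68% and 12% of all genes. The median over the members was a log2 fold change of 0.43 on the deposited and 0.15 on the size-factor scale, and 6 of 10 lay above the median of all genes on each scale. All KO libraries stood above all controls for 4 members as deposited (Pdss2, Coq3, Coq5 and Coq9), against 25.6% of all genes, and for 2 with size factors (Coq3 and Coq5), against 12.5%. All KO libraries stood below all controls for 0 members as deposited, against 2.34% of all genes. With size factors this held for 1, Coq7, against 11.6%.

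**Figure D1:**
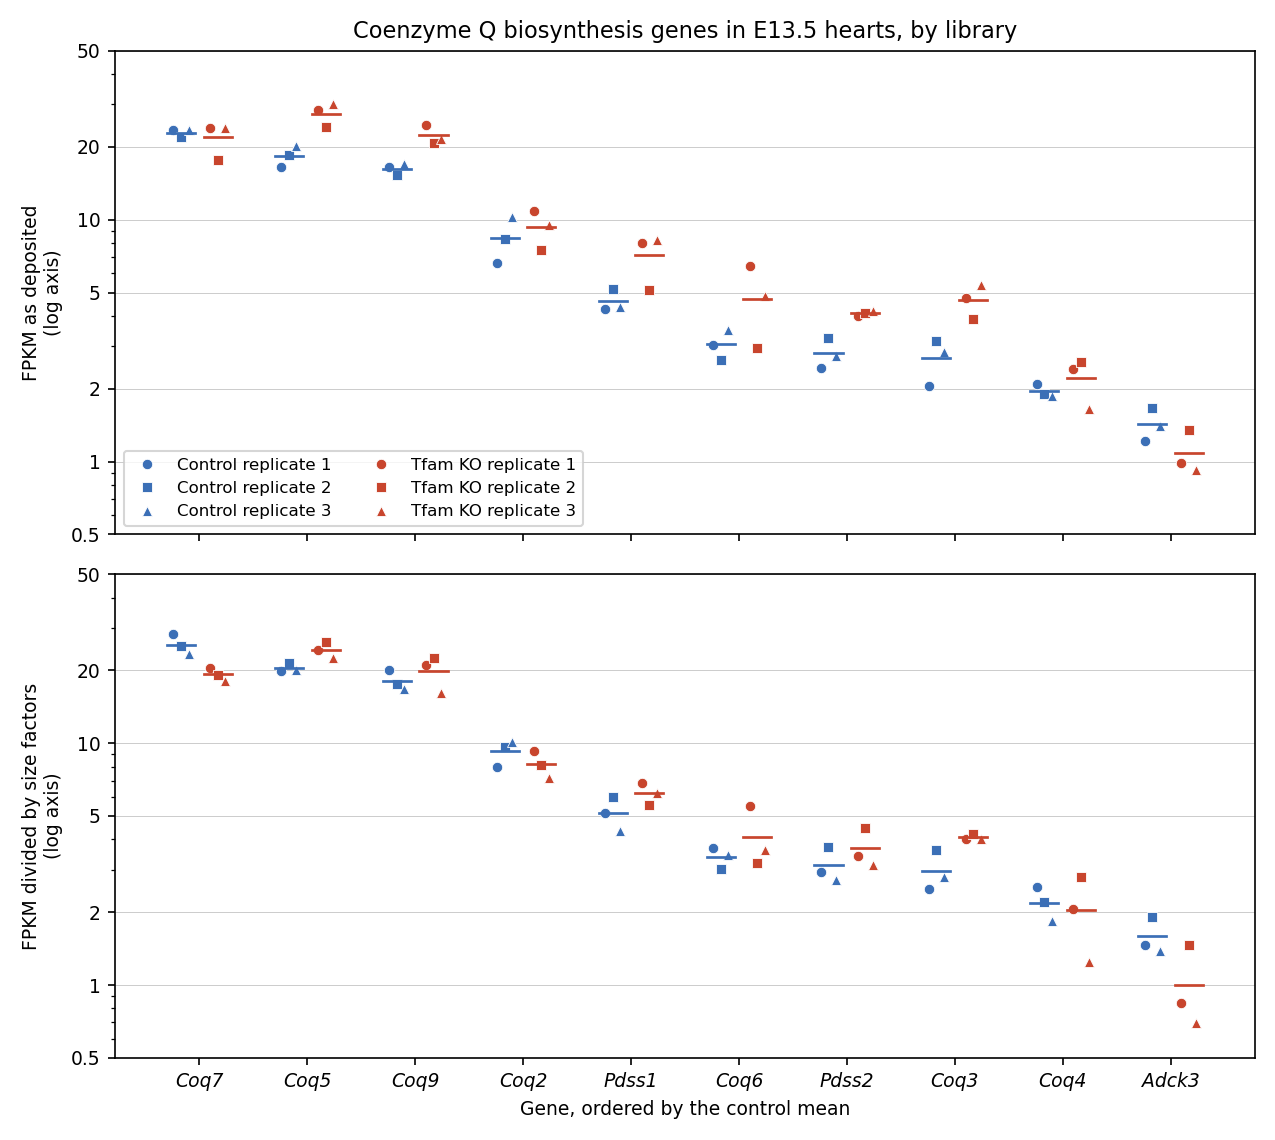
FPKM of each coenzyme Q gene in each library on a log axis, as deposited (top) and divided by size factors (bottom); points are libraries, with a marker shape per replicate number, and horizontal lines are group means. The KO points of Coq3 and Coq5 sit above all control points in both panels, and those of Coq7 sit below them only in the lower panel.

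Tail synthesis needs Pdss1 and Pdss2, the subunits that together form the polyprenyl diphosphate synthase. Pdss1 was at 7.996, 5.14 and 8.27 FPKM in Tfam KO replicates 1, 2 and 3 (164, 116 and 226 reads), and at 4.26, 5.19 and 4.36 FPKM in Control replicates 1, 2 and 3 (97, 105 and 129 reads). KO replicates 1 and 3 were above all controls, and KO replicate 2 lay among them. The group means were 7.14 ± 1.74 and 4.605 ± 0.511 FPKM (SD, n = 3 each). Pdss1 had a log2 fold change of 0.52 as deposited (95% interval 0.07 to 0.96, adjusted p = 0.134) and of 0.23 after size-factor scaling (-0.07 to 0.54, adjusted p = 0.397). Pdss2 was at 4.001, 4.12 and 4.19 FPKM in the KO pools, a tight group, and at 2.43, 3.24 and 2.75 FPKM in the control pools, with no overlap as deposited. Its log2 fold change was 0.43 (-0.0063 to 0.87, adjusted p = 0.199) as deposited. With size factors the groups overlapped, at 3.41, 4.47 and 3.15 against 2.93, 3.73 and 2.71, and the log2 fold change was 0.18 (-0.16 to 0.52, adjusted p = 0.579). Both subunits thus had positive fold changes of a similar size on each scale, and neither passed the test.

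Joining the tail to the ring falls to Coq2, a prenyltransferase of the inner membrane. Coq2 was at 10.9, 7.53 and 9.54 FPKM in the KO pools and 6.62, 8.36 and 10.2 FPKM in the control pools, and the groups overlapped. Coq2 had a log2 fold change of 0.14 as deposited (-0.31 to 0.59, adjusted p = 0.678) and of -0.15 after size-factor scaling (-0.45 to 0.15, adjusted p = 0.593). Its direction depended on the scale.

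Among the enzymes that modify the ring, Coq3, an O-methyltransferase, had the largest positive difference of the 10 genes on both scales. Coq3 was at 4.73, 3.88 and 5.36 FPKM in the KO pools (155, 140 and 234 reads) and 2.06, 3.16 and 2.84 FPKM in the control pools (75, 102 and 134 reads). With size factors the KO pools were at 4.03, 4.204 and 4.03 and the controls at 2.49, 3.63 and 2.81. Every KO library was above every control on both scales. The KO mean was 1.73 times the control mean as deposited and 1.37 times with size factors. The log2 fold change of Coq3 was 0.62 ± 0.22 (SE) as deposited, with a 95% interval of 0.19 to 1.06 and an adjusted p of 0.0628. With size factors it was 0.37 ± 0.14 (0.06 to 0.67, adjusted p = 0.174). Neither adjusted p passed the threshold, and both unadjusted values were under it (0.00526 and 0.0227).

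Coq5, the C-methyltransferase, was at 28.4, 24.1 and 30.0 FPKM in the KO pools and 16.5, 18.6 and 20.2 FPKM in the control pools, with means of 27.5 ± 3.02 and 18.4 ± 1.88 FPKM (SD, n = 3 each). With size factors it was at 24.2, 26.2 and 22.6 against 19.9, 21.4 and 19.98, and the groups did not overlap on either scale. Coq5 had a log2 fold change of 0.55 as deposited (0.10 to 1.0, adjusted p = 0.112) and of 0.24 after size-factor scaling (-0.0087 to 0.49, adjusted p = 0.276). Coq6, a flavin-dependent ring hydroxylase, was at 6.42, 2.94 and 4.82 FPKM in the KO pools and 3.05, 2.62 and 3.49 FPKM in the control pools. KO replicate 2 again lay among the controls. Coq6 had a log2 fold change of 0.46 as deposited (0.02 to 0.89, adjusted p = 0.177) and of 0.19 after size-factor scaling (-0.18 to 0.57, adjusted p = 0.591).

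Coq7, the hydroxylase of the penultimate step, was the ring-modifying enzyme with a negative log2 fold change on both scales, while the other 3 had positive ones. It was at 24.1, 17.7 and 24.0 FPKM in the KO pools (263, 213 and 350 reads) and 23.4, 21.9 and 23.6 FPKM in the control pools (284, 236 and 371 reads), and the groups overlapped as deposited. With size factors the KO pools were at 20.5, 19.2 and 18.1 and the controls at 28.3, 25.2 and 23.3, so that every KO library was below every control. The KO mean was then 0.753 times the control mean. Coq7 had a log2 fold change of -0.07 as deposited (-0.53 to 0.38, adjusted p = 0.829) and of -0.39 ± 0.12 (SE) after size-factor scaling (-0.65 to -0.13, adjusted p = 0.0991). Limma-voom gave -0.41 (adjusted p = 0.117). The value with size factors lay outside the middle range of all genes, whose quartiles were -0.15 and 0.16, but did not pass the test. This was not particular to Coq7, since every other member except Coq4 and Coq9 also lay outside those quartiles.

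Coq4 is needed for the protein complex, and Coq9 binds lipid and works with Coq7. Coq9 was at 24.6, 20.8 and 21.5 FPKM in the KO pools and 16.6, 15.3 and 17.0 FPKM in the control pools, with no overlap as deposited. With size factors the groups overlapped, at 21.0, 22.6 and 16.2 against 20.03, 17.6 and 16.8. Coq9 had a log2 fold change of 0.43 as deposited (-0.02 to 0.88, adjusted p = 0.213) and of 0.12 after size-factor scaling (-0.20 to 0.43, adjusted p = 0.715). Coq4 was at 2.41, 2.59 and 1.66 FPKM in the KO pools and 2.10, 1.91 and 1.87 FPKM in the control pools, on 47 to 71 reads. The groups overlapped. Its log2 fold change was 0.11 (-0.31 to 0.53, adjusted p = 0.725) as deposited and -0.10 after size-factor scaling (-0.53 to 0.32, adjusted p = 0.828). Coq4 shares 921 exonic bases with Trub2 on the opposite strand in the GENCODE vM21 annotation. The strand setting of the counting was not given in the sources used here. Whether reads in these bases were counted for Coq4, for Trub2 or for neither cannot be told.

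Adck3 encodes COQ8A, an ancient kinase-like protein that uses ATP to support the complex, and it had the lowest transcript level of the 10 genes. Adck3 was at 0.990, 1.35 and 0.922 FPKM in the KO pools (50, 75 and 62 reads) and 1.21, 1.67 and 1.40 FPKM in the control pools (68, 83 and 102 reads). KO replicates 1 and 3 were below all controls and KO replicate 2 was above Control replicate 1. Adck3 had a log2 fold change of -0.22 as deposited (-0.63 to 0.19, adjusted p = 0.465), -0.39 with size factors (-0.77 to -0.0038, adjusted p = 0.255) and -0.78 in limma-voom, which adds no pseudocount of 1 FPKM (adjusted p = 0.107). The 50 reads of Tfam KO replicate 1 carry an exact 95% Poisson interval of 37.1 to 65.9 reads, which covers counting error only. Adck3 shares 366 exonic bases with Cdc42bpa on the opposite strand. Shorter opposite-strand overlaps also touch Pdss1 (194 bases with Abi1 and 207 with A130006I12Rik), Coq6 (128 with Fam161b) and Coq9 (38 with Ciapin1), and Pdss2 shares 33 bases with Gm47856 on the same strand. Coq2, Coq3, Coq5 and Coq7 share no exonic base with another annotated gene. The Adck3 paralog Adck4 (Coq8b) was at 2.58, 1.42 and 1.86 FPKM in the KO pools and 1.31, 0.96 and 2.17 FPKM in the control pools. The groups overlapped, and the log2 fold change of Adck4 was 0.26 as deposited (adjusted p = 0.392) and 0.06 after size-factor scaling (adjusted p = 0.892).

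**Figure D2:**
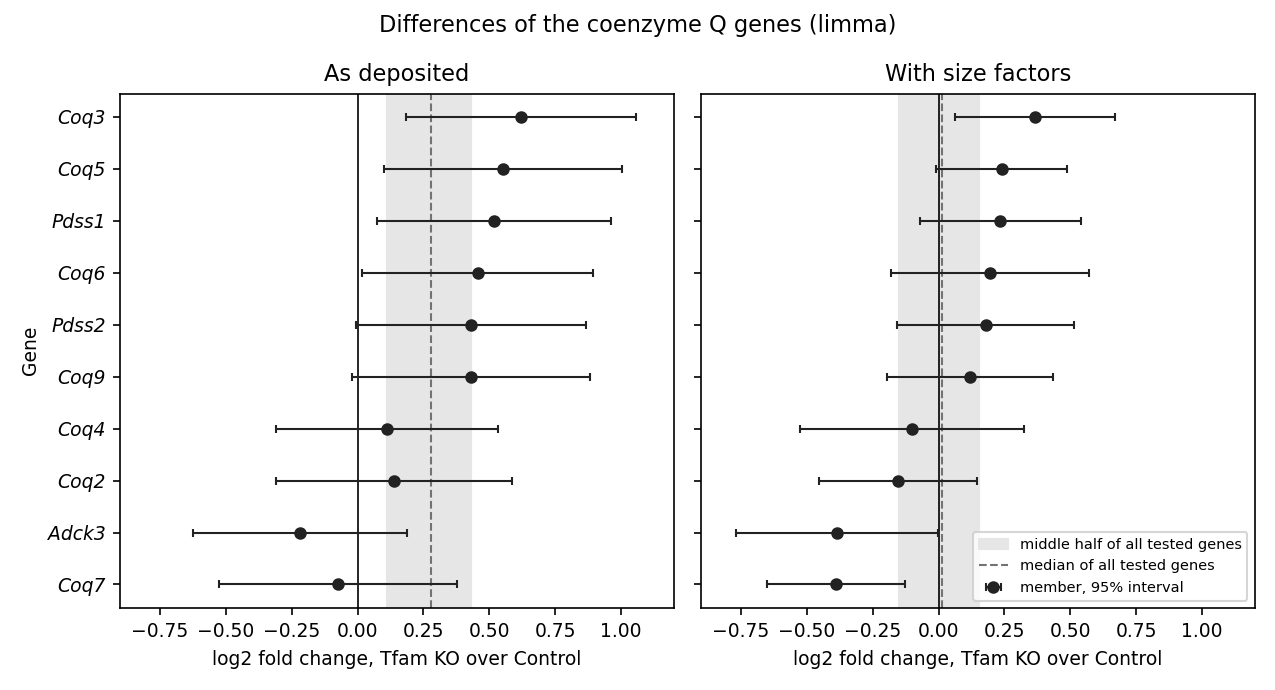
Log2 fold changes, Tfam KO over Control, of the 10 genes with their 95% intervals from limma, as deposited (left) and with size factors (right); the dashed line is the median and the grey band the middle 50% of all tested genes. The members run from -0.22 to 0.62 in the left panel and from -0.39 to 0.37 in the right one.

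By role, the median log2 fold change of the tail synthase pair was 0.47 on the deposited and 0.21 on the size-factor scale. The 4 ring-modifying enzymes had medians of 0.50 and 0.22. Coq4 and Coq9 had medians of 0.27 and 0.01. The ring-modifying enzymes hold both the highest member, Coq3, and Coq7, the lowest with size factors. The summed FPKM of the 10 genes was 105 ± 13.0 in the KO pools and 82.6 ± 4.80 in the control pools as deposited (SD, n = 3 each), a ratio of 1.27. With size factors the sums were 92.8 ± 8.47 and 91.8 ± 4.41, a ratio of 1.01. The KO sums, 90.2 to 114, lay above the control sums, 78.2 to 87.7, as deposited. After size-factor scaling the ranges overlapped, at 83.0 to 97.8 and 86.7 to 94.4.

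The share of each gene in the summed FPKM of the 10 is the same on both scales, because the library factor cancels. Coq7 made up 21.0%, 19.6% and 21.8% of the sum in the KO pools and 29.9%, 26.7% and 26.9% in the control pools. The groups did not overlap and the difference was -7.03 percentage points. Coq5 made up 24.8%, 26.8% and 27.2% in the KO pools and 21.1%, 22.7% and 23.0% in the control pools, a difference of 3.98 points with no overlap. The shares of Coq3 were 4.13%, 4.30% and 4.86% against 2.64%, 3.85% and 3.23%, again without overlap. Those of Adck3 were 0.865%, 1.495% and 0.835% against 1.55%, 2.03% and 1.598%, with every KO library below every control. The other 6 shares overlapped between the groups. The 10 shares of a library add up to the whole, so a lower share of Coq7 goes with higher shares elsewhere. The 4 differences are therefore not independent of each other. Set against the same sum, 9.97% of all tested genes had every KO library above every control and 11.7% had every KO library below. An exact permutation test of 3 libraries against 3 cannot give a two-sided p below 0.1, which is the value for each of these 4 shares.

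**Figure D3:**
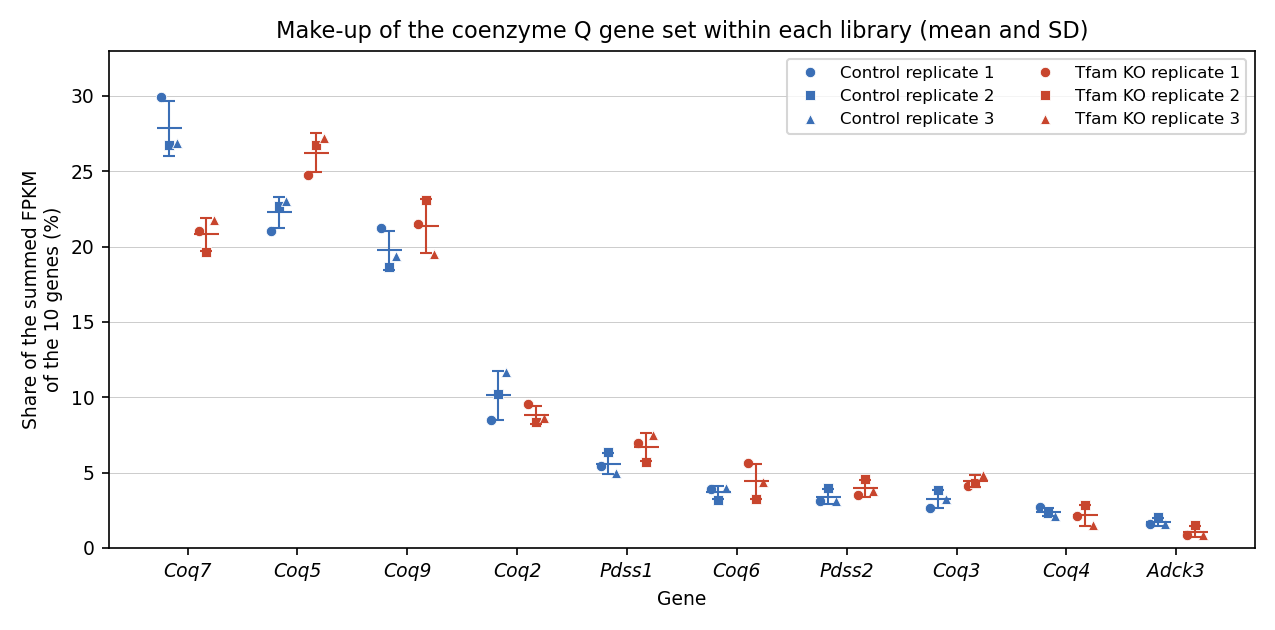
Share of each gene in the summed FPKM of the 10 coenzyme Q genes within each library, in percent; points are libraries and bars are the mean and SD of 3 libraries. Coq7 holds 26.7% to 29.9% in the control pools and 19.6% to 21.8% in the KO pools, and Coq5 has the highest share in each KO pool.

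The order of the levels differed at the top. In the controls Coq7 was highest, followed by Coq5 and Coq9, whose ranges overlapped, then Coq2 and Pdss1, each separated from its neighbours. Coq6, Pdss2, Coq3 and Coq4 followed with overlapping neighbours, and Adck3 was lowest. Coq4 and Adck3 were separated as deposited and overlapped with size factors. In the KO libraries Coq5 was first, Coq9 the second and Coq7 the third, and the ranges of Coq9 and Coq7 overlapped on both scales. Coq5 and Coq9 overlapped as deposited and were just separated with size factors, at 22.58 and 22.57 FPKM. Coq5 exceeded Coq7 in 3 of 3 KO libraries and in 0 of 3 controls. The ratio of Coq5 to Coq7 was 1.18, 1.36 and 1.25 in the KO pools and 0.704, 0.848 and 0.858 in the control pools. This ratio was picked after its values were seen, and it is not particular to Coq5. The ratio to Coq7 was higher in every KO library than in every control for 6 of the 9 other members, and for 47.8% of all other tested genes.

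Genes that serve the pathway without being among its core enzymes were taken from 4 lists. Of 12 accessory genes, which include the Coq10 lipid-binding proteins, the other Adck genes and the ferredoxin system, known from yeast to supply electrons to Coq6, 10 passed the filter. As deposited, 2 of the 10 passed the test upward and 1 downward, against 6.21% and 1.16% of all tested genes. With size factors 0 passed upward and 1 downward, against 2.07% and 2.5%. At an unadjusted p of 0.05, 2 were higher with size factors, against 8.87% of all genes, and limma-voom called 0 in either direction. The median log2 fold change of the accessory list was 0.23 and 0.03 on the 2 scales. Fdx1l (Fdx2), a mitochondrial ferredoxin, fell on both scales. It was at 0.815, 0.648 and 0.765 FPKM in the KO pools and 3.12, 1.65 and 1.34 FPKM in the control pools, with log2 fold changes of -0.76 (adjusted p = 0.00774) and -0.94 (adjusted p = 0.0477). Its mean was 0.743 FPKM in the KO pools and 2.04 FPKM in the controls. It thus passed the filter of 1 FPKM only through the controls, the group where it was high. With no filter its limma adjusted p as deposited was 0.183. The reads behind Fdx1l were few, at 8, 7 and 10 in the KO pools and 34, 16 and 19 in the control pools. In limma-voom the log2 fold change was -1.60 (adjusted p = 0.0705), and without Control replicate 1 the log2 fold change was -0.52 as deposited (adjusted p = 0.369). With size factors its call was lost in 5 of the 6 fits that left out 1 library, while its log2 fold change ran from -1.17 to -0.65. Fdx1l shares 1034 exonic bases with Gm38431 and 516 with Gm49373 on the same strand in that annotation, which may differ from the authors'. Whether reads in these bases were counted for Fdx1l, for the other genes or for none cannot be told.

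Coq10b, which binds coenzyme Q and helps it work in respiration, was at 5.06, 3.89 and 8.63 FPKM in the KO pools and 2.78, 3.03 and 3.77 FPKM in the control pools. All KO libraries were above all controls, and its log2 fold change was 0.66 as deposited (adjusted p = 0.0475) and 0.39 after size-factor scaling (adjusted p = 0.200). Adck1, a mitochondrial relative of Adck3, was at 4.74, 2.85 and 4.61 FPKM against 2.39, 2.01 and 2.18 FPKM, without overlap. Its log2 fold change was 0.64 (adjusted p = 0.0482) and 0.39 (adjusted p = 0.154). Both passed the test as deposited only.

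The isoprenoid list holds the mevalonate pathway enzymes that make the building blocks of the tail. Of its 9 genes, Hmgcs1 was listed at 0 in all 6 libraries and the other 8 were tested. On the deposited scale 0 passed upward and 0 downward, against 6.21% and 1.16% of all tested genes. Size factors also gave 0 and 0, against 2.07% and 2.5%. The isoprenoid medians were -0.03 and -0.28 on the 2 scales. At an unadjusted p of 0.05, the deposited values gave 1 gene lower, against 2.53% of all genes. Size factors gave 2 lower, against 10.4%. Mvk, mevalonate kinase, named here after its values were seen, passed downward in limma-voom with a log2 fold change of -1.15 (adjusted p = 0.0359). Its adjusted p was 0.127 as deposited and 0.0970 with size factors. In limma-voom 4.27% of all tested genes were called lower.

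Downstream of synthesis, 9 of 12 dehydrogenases that hand electrons to coenzyme Q were tested. Of these 9, 2 passed upward as deposited, against 6.21% of all tested genes, and 0 with size factors, against 2.07%. At an unadjusted p of 0.05, size factors gave 2 higher and 1 lower, against 8.87% and 10.4% of all genes. Limma-voom called 1 upward, against 2.55%. Sdhb, the iron-sulfur subunit of complex II, was at 129, 91.9 and 127 FPKM in the KO pools and 58.3, 74.4 and 63.5 FPKM in the control pools, with no overlap. Its log2 fold change was 0.81 as deposited (adjusted p = 0.0103), 0.48 with size factors (adjusted p = 0.0822) and 0.48 in limma-voom (adjusted p = 0.0469). Gpd2, the mitochondrial glycerol-3-phosphate dehydrogenase, was at 7.88, 5.62 and 11.5 FPKM against 3.81, 4.59 and 5.33 FPKM, again without overlap. The log2 fold change of Gpd2 was 0.70 (adjusted p = 0.0340) as deposited and 0.42 (adjusted p = 0.132) with size factors. The dehydrogenase list had medians of 0.32 and 0.04. Of 9 nuclear complex III genes, whose products take electrons from reduced coenzyme Q, 1 passed upward as deposited, against 6.21% of all tested genes, and 0 with size factors, against 2.07%. At an unadjusted p of 0.05, size factors gave 1 higher and 2 lower, against 8.87% and 10.4%, and limma-voom called 0. The gene called was Uqcr10, a small subunit, at 26.8, 24.8 and 28.4 FPKM against 16.9, 17.0 and 14.7 FPKM, with log2 fold changes of 0.68 (adjusted p = 0.0443) and 0.37 (adjusted p = 0.208). The complex III medians were 0.22 and -0.10. On both scales the coenzyme Q genes had the highest median of the 5 lists, and no test set the lists against each other. When 1 library at a time was left out, the deposited-scale calls of Coq10b, Adck1, Gpd2 and Uqcr10 were each lost in 5 of 6 fits and that of Sdhb in 3 of 6. Their log2 fold changes kept their sign in these fits, from 0.38 to 0.87 for Coq10b, 0.54 to 0.83 for Adck1, 0.47 to 0.93 for Gpd2, 0.62 to 0.73 for Uqcr10 and 0.72 to 0.97 for Sdhb.

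**Figure D4:**
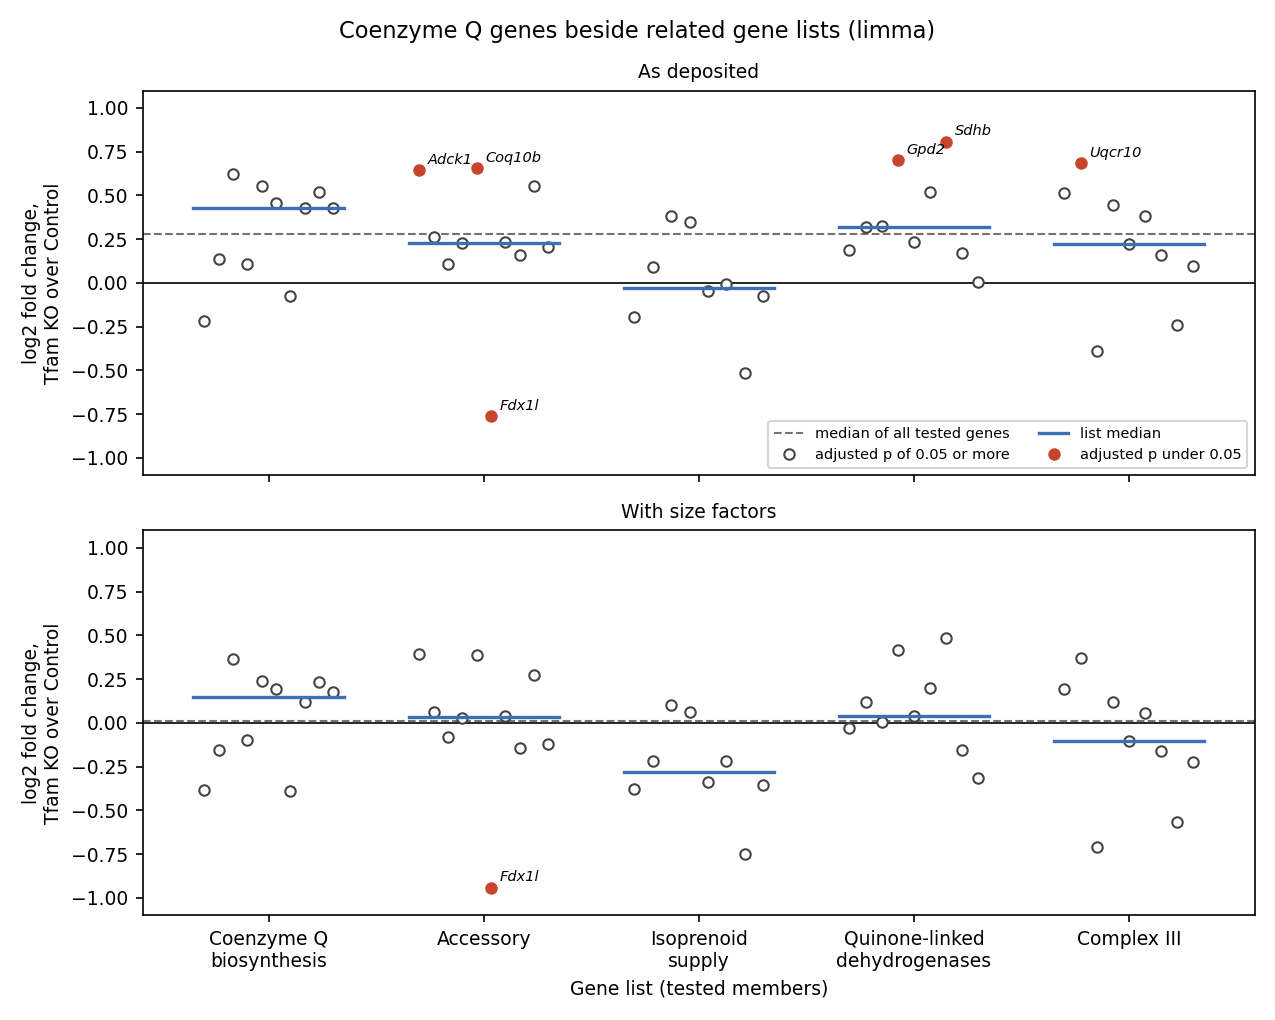
Log2 fold changes, Tfam KO over Control, of the tested genes of 5 lists, as deposited (top) and with size factors (bottom); filled points passed an adjusted p of 0.05 in limma, blue lines are list medians and the dashed line is the median of all tested genes. In the top panel 6 genes are filled and in the bottom panel only Fdx1l is.

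On the deposited scale the count of 0 members called did not hold in every setting. Without Tfam KO replicate 2, which had the lowest size factor of the KO group at 0.923, 4 members passed upward as deposited: Pdss1 (adjusted p = 0.0233), Coq3 (0.0247), Coq5 (0.0346) and Coq6 (0.0271). Of all 10807 tested genes, 2273 then passed upward, so the added calls were not particular to these members. With size factors 0 members passed with that library left out, and 0 with any other left out. Coq3 had a positive log2 fold change in 22 of 22 settings, from 0.28 to 0.78. Pdss1, Coq5 and Coq9 were positive in 23 of 23 settings, and Pdss2 and Coq6 in 22 of 22. Adck3 was negative in 22 of 22, from -0.78 to -0.15, and Coq7 in 22 of 23. All settings draw on the same 6 libraries, and some cannot change the estimate. Dropping the filter or the variance trend, or adding the replicate block, left Coq3 at 0.62 as deposited. These counts of settings are thus not independent support for a direction, and no such count is given for all tested genes. With library totals that leave out Rn45s, a setting chosen after seeing the data, the log2 fold changes of Coq3 and Coq7 were 0.56 and -0.20.

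**Figure D5:**
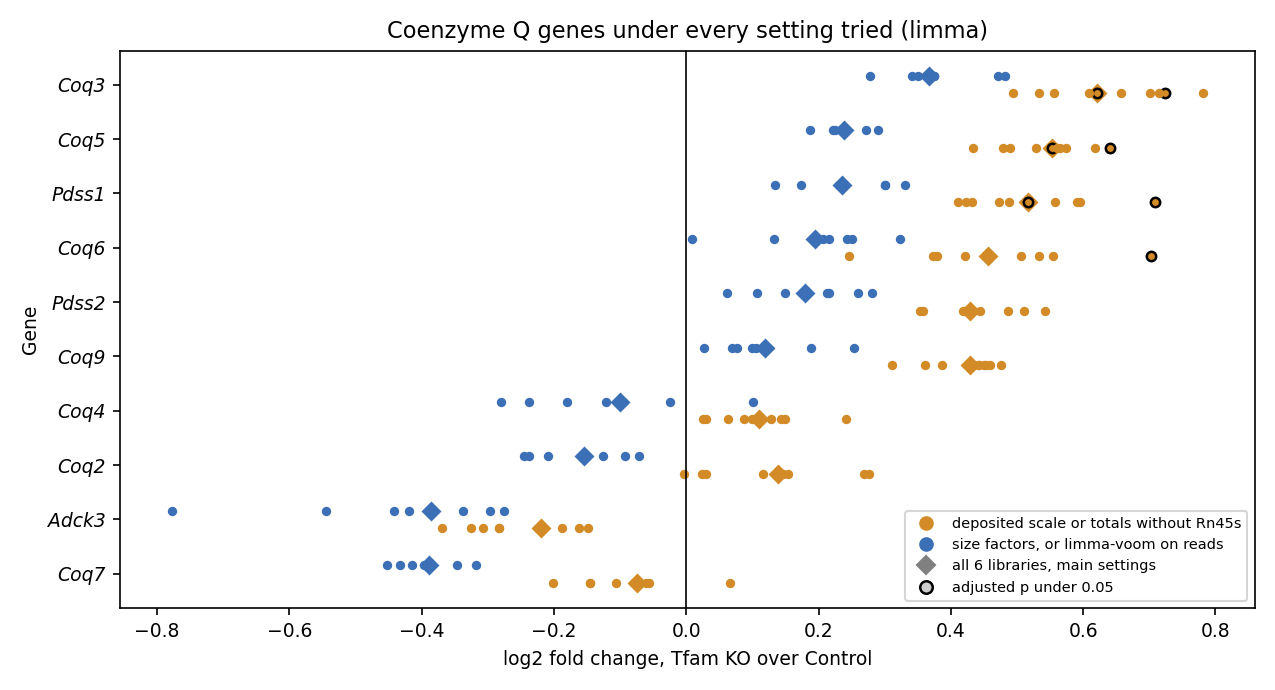
Log2 fold changes, Tfam KO over Control, of the 10 genes under every setting tried. Orange points keep the deposited scale or totals without Rn45s, and blue points use size factors or limma-voom on reads. Diamonds are the main fits with all 6 libraries on the deposited and the size-factor scale, and circles are all other settings. Black rims mark an adjusted p under 0.05. Rims appear on orange points only, and Coq3 stays between 0.28 and 0.78.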

How the data were processed

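Expression was read from 6 deposited tables, 1 per library, in which the authors give log2(FPKM + 1) per gene symbol. The log2 scale was worked out from the values. Per the submitters' processing notes, the tools named are HTSeq 0.5.3, CASAVA 1.8.2 and TopHat2 2.0.7, with build mm9. The sources used here do not give the strand setting or the annotation. Low FPKM values are whole steps of 1 read, so totals and reads were recovered: all 17876 genes above 0 gave whole reads (tolerance 1e-05 of a read). The absolute totals rest on the 607 genes that gave the same total, among 2439 whose annotated transcripts share 1 length. The reads of a gene are the smallest whole numbers in proportion over the libraries, so a factor common to all libraries could be missing. A gene above 0 in a single library gives whole reads by construction.

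limma 3.58.1 (R 4.3.3) with a variance trend compared the 3 Tfam KO with the 3 Control libraries for the 10807 genes averaging 1 FPKM or more, two-sided, with Benjamini-Hochberg adjustment over all of them at 0.05. In the main fit on the deposited scale the prior degrees of freedom were infinite. Its SEs, intervals and p-values thus came from the variance trend and gave no weight to a gene's own spread. With size factors the prior degrees of freedom were 6.197, so each gene's own spread also counted. Because of the pseudocount of 1, each fold change refers to log2(FPKM + 1), which understates low genes. Size factors were medians of ratios over genes above 0 in every library. The fits were tested on simulated data.

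The members and gene lists were chosen with earlier results of these data known. Named genes are all members, Tfam, Adck4, and in 4 related lists those past the threshold on both scales plus up to 3 per list past it on 1; Mvk, Emcn and Cx3cr1 were added after their values were seen. Alternatives were size factors, pseudocount, filter, trend, replicate block, limma-voom, totals without Rn45s and each library left out. Sequences come from RefSeq (GRCm38.p6) and exon overlaps from GENCODE vM21 (GRCm38), which is not the build the authors used.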

Additional observations from a re-analysis of the deposited data

How the results depend on the processing

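The limits are the 3 libraries per group, the unsettled scale and, for Coq4, Adck3 and Fdx1l, few reads. Whether samples with the same replicate number belong together was not settled. The correlations of their deviations were 0.36, 0.05 and 0.17 for replicates 1, 2 and 3 as deposited. Between samples with different numbers they ran from -0.41 to 0.25. Under the replicate block with size factors, 0 of the 10 coenzyme Q genes were called. As deposited, the replicate block called 3 members upward (Pdss1, Coq3 and Coq5). It moved the counts over all 10807 tested genes from 671 higher and 125 lower to 2083 and 241. It gave 1 isoprenoid gene lower and 2 complex III genes higher. With size factors and the block, all-gene counts were 287 and 394.

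Size factors gave all-gene counts of 224 and 270 (45.3% of calls upward, against 84.3% as deposited), 276 and 461 with limma-voom, and 145 and 22 with no filter. A filter of 5 FPKM gave 74 lower. Without Rn45s in the totals, 74.1% of calls were upward. The members' median log2 fold change of 0.43 moved to 0.15 with size factors, with or without the replicate block, and to 0.16 with limma-voom. Coq2 and Coq4 reversed to -0.15 and -0.10 with size factors, with or without the block, and to -0.21 and -0.24 with limma-voom. The cause was not tested.

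Of the related lists, accessory genes higher were 0 with size factors (with or without the block), no filter, the filter of 5 FPKM, no variance trend, limma-voom and totals without Rn45s. Accessory genes lower were 0 with no filter, the filter of 5 FPKM and limma-voom. The filter of 5 FPKM left 3 accessory genes and took out Fdx1l, Coq10b and Adck1, the genes called, so its counts of 0 do not test them. Limma-voom gave 1 isoprenoid gene lower. Dehydrogenases higher were 0 with size factors (with or without the block) and with no filter, and 1 with limma-voom and with totals without Rn45s. Complex III genes higher were 0 with size factors (with or without the block), no filter and limma-voom.

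Leaving out 1 library in turn gave, as deposited, 234 to 2273 genes higher and 52 to 112 lower, and with size factors 138 to 216 and 123 to 341. Members higher ran from 0 to 4 as deposited and were 0 with size factors. Their median ran from 0.30 to 0.45 and from 0.043 to 0.24. Accessory genes higher ran from 0 to 3 as deposited and were 0 with size factors, and accessory genes lower ran from 0 to 1 on both scales. Isoprenoid genes higher ran from 0 to 2 as deposited and isoprenoid genes lower from 0 to 1 with size factors. Dehydrogenases higher ran from 0 to 3 and from 0 to 1. Complex III genes higher ran from 0 to 1 as deposited and were 0 with size factors, where complex III genes lower ran from 0 to 1. Coq7 ran from -0.15 to 0.066 (without Tfam KO replicate 2) as deposited, Coq2 from -0.0042 (without Control replicate 1) to 0.28, Coq4 from 0.025 to 0.24 and Adck4 from 0.11 to 0.45. With size factors Coq2 ran from -0.25 to -0.07, Coq4 from -0.28 to 0.10, Adck4 from -0.083 to 0.21 and Coq7 from -0.45 to -0.32.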
